A study of Mus musculus with 8 samples.

Results

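A set of 39 genes of the interferon response and of MHC class I antigen presentation was followed in RNA from mouse pancreatic islets. The genes were chosen by symbol from a fixed list of interferon-stimulated and MHC class I genes, and 39 of 39 were found among the 24091 genes of the count table. RNA-seq libraries from 4 control and 4 mutant islet samples of 6-week-old mice were compared. Control mice are labelled wild-type and mutant mice Ngn3-Cre, itgb1-/-, all on a C57BL/6 background. In the mutant, a floxed *Itgb1* allele, which encodes the integrin β1 subunit, is recombined by a Cre that *Ngn3* regulatory sequences drive in endocrine progenitors, so that the blood vessel, stromal and immune cells within an islet keep the gene. Islets were isolated with collagenase and left overnight in culture medium before RNA was taken from a small number of islets per sample. Each sample is therefore a mixture of cells, in which fewer cells of a type and less RNA per cell cannot be told apart.

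Type I interferons are secreted proteins that signal through a receptor with the kinases Jak1 and Tyk2, after which transcription factors, Stat2 and Irf9 among them, enter the nucleus and switches on interferon-stimulated genes. Many of these genes block virus replication, some sense viral RNA and amplify the signal, and others raise the cutting of proteins into peptides and their display on MHC class I molecules, where cytotoxic T cells read them. In islets, interferon-stimulated genes and MHC class I are widely studied because β-cells are attacked by T cells in autoimmune diabetes.

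By role, the members were 6 regulators (*Irf1*, *Irf7*, *Irf9*, *Stat2*, *Nlrc5* and *Usp18*), 3 sensors of viral RNA (*Ddx58*, *Ifih1* and *Dhx58*), 18 antiviral effectors (*Isg15*, *Ifit1*, *Ifit2*, *Ifit3*, *Ifi44*, *Mx1*, *Mx2*, *Oas1a*, *Oas2*, *Oas3*, *Oasl1*, *Oasl2*, *Rsad2*, *Bst2*, *Cmpk2*, *Xaf1*, *Rtp4* and *Parp14*), 3 guanylate-binding proteins (*Gbp2*, *Gbp3* and *Gbp7*), 3 immunoproteasome subunits (*Psmb8*, *Psmb9* and *Psmb10*), 3 genes of peptide transport and loading (*Tap1*, *Tap2* and *Tapbp*) and 3 genes of the class I molecule itself (*B2m*, *H2-K1* and *H2-D1*). All 39 passed the low count filter, and 15233 genes were tested in all.

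The libraries held 35110802 to 67614688 counts assigned to genes, with control 2, control 3 and mutant 3 at 62207606 or more and the other 5 libraries at 40984481 or fewer. *Itgb1* read 422, 432, 408 and 315 CPM (TMM-normalized counts relative to the size of the library) across controls 1 to 4 and 266, 225, 193 and 255 across mutants 1 to 4, with all mutants below all controls. Control 3 and mutant 3 held *Xist* at 1125 and 1225 CPM and no count of the Y-linked *Ddx3y*, whereas the other 6 libraries held *Xist* below 1 CPM and *Ddx3y* at 91.6 CPM or more. Hormone and other endocrine markers were present in every library, with a summed level of 176838 CPM in control 2, 286574 CPM in control 3 and 48927 to 74896 CPM in the other 6. Of these 7 markers 3 were lower in the mutant at an unadjusted p below 0.05, where 6.89% of all genes were. The summed level of 6 acinar markers was 2682 CPM in control 2, 8423 CPM in control 3 and 15.3 to 572 CPM in the other 6 libraries. No pair of libraries was alike within counting error. The design note calls the samples biological replicates, and the labels do not name the mice, so p-values reflect spread among the libraries, part of which may be technical.

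Across all 8 libraries no member passed a test of the difference between mutant and control islets. None of the 39 was called by edgeR's quasi-likelihood test, which took a fold change above 2 with an adjusted p under 0.05, where 0% of all genes did. None was past an unadjusted p of 0.05 in either direction, where 6.4% of all genes were higher and 6.89% lower in the mutant. With DESeq2, 0 of 39 members were called, where 1.25% of the 14912 genes with an adjusted p were. DESeq2 gave *Cmpk2* no p-value, so this member could not be called there. In the same fit 1 member, *Irf1*, had an unadjusted p below 0.05, and was lower, where 8.02% of all genes were higher and 8.72% lower. The 39 log2 fold changes, mutant against control, split into 19 above and 20 below 0. Their median was -0.01, and that of all genes was 0.00. Single libraries moved it: without control 2 the median was 0.92, with 37 members above 0, and without control 3 it was -0.39, with 13 above 0. No member had all 4 mutant libraries above all 4 controls, where 4.4% of all genes did, and none had all 4 below, where 3.8% did. The smallest adjusted p of the 39 was 0.407, for *Irf1*.

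The members instead differed between libraries of the same genotype, and by far more than most genes did. The median SD of log2 CPM within groups was 1.62 for the members and 0.28 for all genes, and 99.0% of all genes had a smaller SD than the members' median. Control 2 was the highest of the 8 libraries for 25 members and mutant 4 for the other 14, where 17.8% of all genes were highest in control 2 and 11.4% in mutant 4. At the other end, control 3 was lowest for 25 members and mutant 3 for 14. These libraries formed the lowest pair for 35 of 39 members, where 9.1% of all genes had that pair lowest, and the 4 exceptions were *Irf1*, *Cmpk2*, *H2-K1* and *H2-D1*.

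The order of the remaining libraries was shared as well. From high to low the controls stood in the order 2, 4, 1, 3 for 31 of 39 members, where 4.06% of all genes had that order. The mutants stood in the order 4, 1, 2, 3 for 35 of 39 members, where 8.72% of all genes did. Both orders held together for 28 members, where 1.26% of all genes did. These orders were read from the same libraries and are given as a description. The median deviation of the members from their mean over libraries, on the log2 scale, was -0.47, 1.62, -2.30 and 0.29 in controls 1 to 4 and 0.71, 0.15, -1.84 and 1.32 in mutants 1 to 4, and in each library that of all genes lay within 0.02 of 0.

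**Figure D1:**
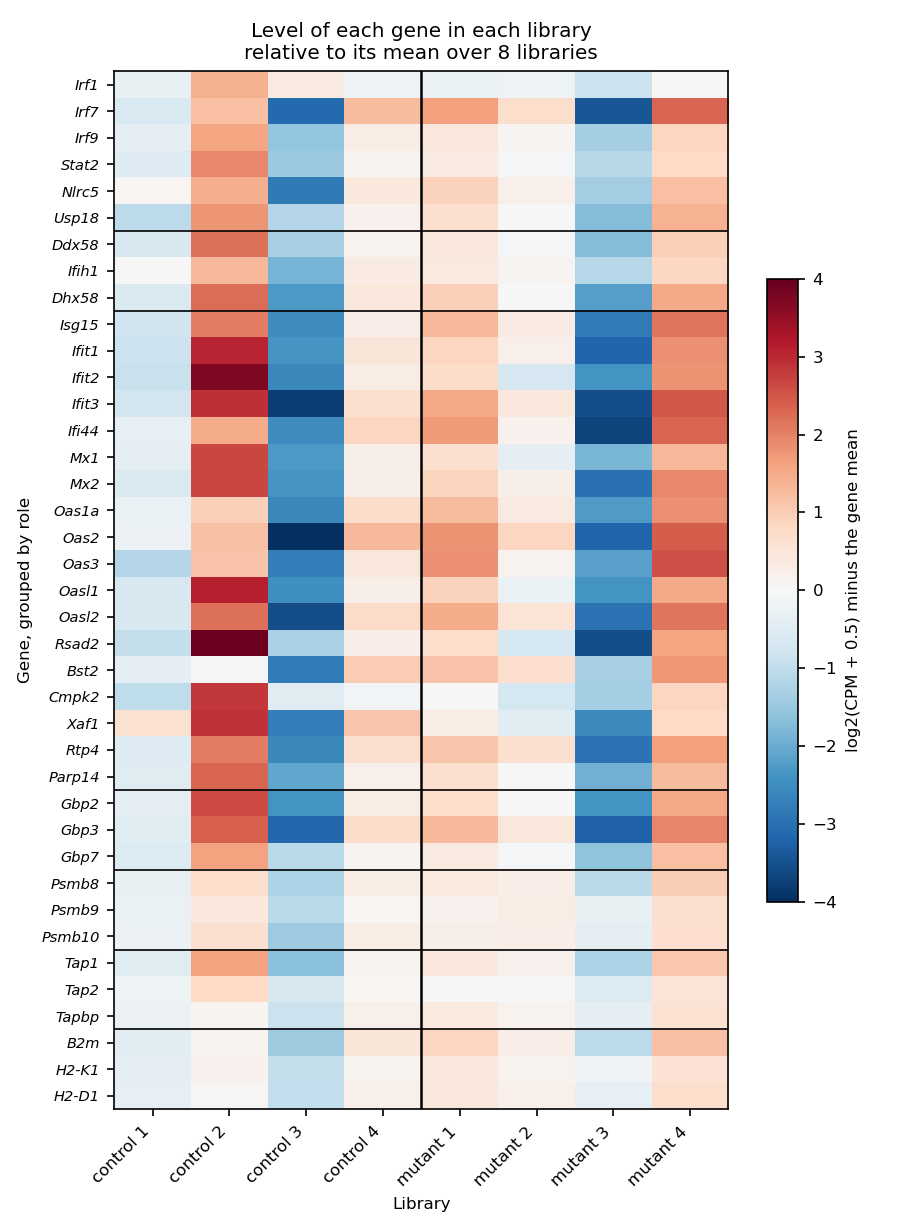
Heat map of the 39 members (y axis, grouped by role) in the 8 libraries (x axis). Colour gives log2(CPM + 0.5) minus the mean of the gene over the 8 libraries, red above and blue below. Control 2 and mutant 4 are red and control 3 and mutant 3 blue for most genes, and the colours pale from the antiviral effectors to the class I genes at the bottom.

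The lowest pair, control 3 and mutant 3, is also the pair with *Xist* and without *Ddx3y*, and control 2, control 3 and mutant 3 are the 3 libraries with the most counts. The part of sex and of library set in the members' levels was not tested. Within the 6 libraries with *Ddx3y*, a comparison added after the data had been seen, 20 members had a log2 fold change above 0 and 19 below, and the median was 0.01. *H2-D1* was then higher with an unadjusted p of 0.0458 and *Xaf1* lower with 0.0469, 1 member each way, where 8.13% of all genes were higher and 5.98% lower. The smallest adjusted p of the 39 was 0.345. The summed acinar markers read 15.3, 2682, 8423 and 227 CPM across controls 1 to 4. They read 87.4, 65.0, 96.8 and 572 CPM across mutants 1 to 4. In the 6 libraries with *Ddx3y* the sums stood in the members' shared order, controls 2, 4, 1 and mutants 4, 1, 2. Control 3 and mutant 3 departed from it. Control 3 had the highest acinar sum but was the lowest library for 25 members. Mutant 3 had a higher sum than mutants 1 and 2. The part of acinar cells in the members' levels was not tested.

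Promoter sequence was also read for the members. RefSeq windows of 250 bases before to 50 bases after the start (GRCm38.p6) were matched by symbol to 30 of 39 members. They were searched on both strands for GAAA followed by any 2 bases and GAAA again, here the paired GAAA motif, the core of the interferon-stimulated response element that interferon regulatory factors can bind, and for TTCNNNGAA, the core of the gamma-activated site of interferon γ target genes. The paired motif was found in the windows of 14 of the 30 members (46.7%) and of 3.99% of all genes with a window. TTCNNNGAA was found in 6 of 30 (20%), and in 9.55% of all genes with a window. The first motif was present in 3 of 3 guanylate-binding protein genes, 2 of 2 RNA sensors with a window and 7 of 13 effectors, and in 1 of 3 class I genes, 0 of 3 immunoproteasome genes and 0 of 2 loading genes. No window was used for *Usp18*, *Nlrc5*, *Mx1*, *Mx2*, *Tap2*, *Dhx58*, *Oas2*, *Rtp4* and *Parp14*. A match to these letters is not evidence that a factor binds there. The members were chosen as interferon-stimulated and MHC class I genes. A share above that of all genes can follow from this choice and says nothing about the order of the libraries.

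The 160 bases before the start are shown for 3 effectors with 1, 2 and 3 matches, for 1 guanylate-binding protein gene, for *B2m* as the class I gene with a match, and for *Irf1*, which departed from the shared order. They are written 5′ to 3′ on the strand of the gene, and capitals mark matches to the paired GAAA motif on either strand, except in *Irf1*, where they mark TTCNNNGAA. *Rsad2* (chr12:26456453-26456612, minus strand), *Ifit1* (chr19:34640729-34640888, plus strand), *Isg15* (chr4:156200819-156200978, minus strand), *Gbp2* (chr3:142620503-142620662, plus strand), *B2m* (chr2:122147527-122147686, plus strand) and *Irf1* (chr11:53769854-53770013, plus strand) read:
Rsad2: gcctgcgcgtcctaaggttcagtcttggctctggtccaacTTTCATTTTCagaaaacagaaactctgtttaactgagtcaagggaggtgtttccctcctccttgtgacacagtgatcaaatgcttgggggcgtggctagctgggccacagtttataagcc
Ifit1: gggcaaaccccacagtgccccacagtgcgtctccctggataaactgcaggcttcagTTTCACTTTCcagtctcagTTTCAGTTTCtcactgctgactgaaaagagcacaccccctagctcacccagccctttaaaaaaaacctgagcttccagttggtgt
Isg15: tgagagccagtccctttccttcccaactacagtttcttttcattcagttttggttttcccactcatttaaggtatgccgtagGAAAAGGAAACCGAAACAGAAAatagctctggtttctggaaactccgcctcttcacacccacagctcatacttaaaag
Gbp2: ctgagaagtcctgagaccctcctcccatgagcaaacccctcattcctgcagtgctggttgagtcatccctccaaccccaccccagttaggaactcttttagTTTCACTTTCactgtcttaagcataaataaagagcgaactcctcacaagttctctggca
B2m: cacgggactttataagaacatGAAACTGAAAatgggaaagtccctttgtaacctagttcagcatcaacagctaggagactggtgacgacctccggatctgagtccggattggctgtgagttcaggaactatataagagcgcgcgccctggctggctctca
Irf1: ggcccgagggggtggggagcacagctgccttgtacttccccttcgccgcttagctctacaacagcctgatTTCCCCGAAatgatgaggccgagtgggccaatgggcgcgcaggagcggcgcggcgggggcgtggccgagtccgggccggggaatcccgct
In *Isg15* the capitals cover 3 overlapping matches, whose first bases lie at -78, -72 and -66 from the start. *Ifit1* holds 2 separate matches, at -104 and -85. The single matches lie at -120 in *Rsad2*, -59 in *Gbp2* and -139 in *B2m*, and the TTCNNNGAA match of *Irf1* lies at -90. The motifs may overlap each other, as in *Bst2*, where TTCNNNGAA begins at -136 and the paired GAAA motif at -130 and again at -124.

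Among the regulators, *Irf1* was the member with the smallest p and the one that least followed the shared order. *Irf1* (chr11:53770014-53778374, plus strand), a transcription factor of interferon γ and inflammatory signalling, read 88.6, 294, 140.4 and 96.1 CPM across controls 1 to 4 and 92.3, 95.7, 60.3 and 114 across mutants 1 to 4. Control 2 stood above all other libraries, control 3 was second, and mutants 1 and 2 lay between controls 1 and 4. The log2 fold change came to -0.77 (SE 0.39, adjusted p 0.407) in edgeR's quasi-likelihood test, and DESeq2 gave an unadjusted p of 0.0475 and an adjusted p of 0.286. Without control 1 or without control 4 its unadjusted p was 0.0342 or 0.0440. Between the 5 smaller libraries alone its log2 fold change was 0.12 (SE 0.11).

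*Irf7*, the transcription factor that amplifies type I interferon production and is itself interferon-stimulated, read 31.5, 113, 5.21 and 117 CPM across controls 1 to 4 and 154, 78.9, 4.12 and 244 across mutants 1 to 4. Control 3 and mutant 3 stood far below the other 6 libraries, and mutant 4 was 59.1 times mutant 3. The group means were 66.7 ± 56.9 CPM in the controls and 120.2 ± 103 CPM in the mutants (mean ± SD, n = 4 each), and the log2 fold change was 0.85 (SE 1.11, adjusted p 0.734). *Stat2*, which acts with Irf9 on interferon-stimulated genes, read 72.4, 394, 37.3 and 113 CPM across controls 1 to 4 and 133, 100.3, 48.5 and 181 across mutants 1 to 4. It was highest in control 2 and lowest in control 3, and the log2 fold change came to -0.42 (SE 0.69, adjusted p 0.797). Mean levels in controls and mutants were 86.0 and 75.1 CPM for *Irf9*, the DNA-binding partner of Stat2. They were 12.03 and 13.1 CPM for *Nlrc5*, the transactivator of MHC class I genes, and 52.1 and 51.6 CPM for *Usp18*, which removes Isg15 from proteins and damps receptor signalling. Their log2 fold changes were -0.20, 0.12 and -0.01. *Nlrc5* had the widest gap between controls among the regulators, with control 2 at 30.6 times control 3.

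The RNA sensors behaved alike. *Ddx58*, which encodes RIG-I, a helicase that detects viral RNA with a triphosphate end, read 61.9, 445, 38.3 and 106 CPM across controls 1 to 4 and 132, 90.2, 28.3 and 187 across mutants 1 to 4. Control 2 stood apart from the other 3 controls, and mutant 4 was the highest mutant. *Ifih1*, which encodes MDA5, a sensor of long double-stranded RNA, read 75.6, 189, 20.5 and 93.4 CPM across controls 1 to 4 and 98.6, 81.3, 33.7 and 134 across mutants 1 to 4. *Dhx58*, which encodes LGP2, a helicase that modulates the other sensors, read 9.55, 70.2, 2.55 and 19.4 CPM across controls 1 to 4 and 28.5, 14.2, 2.78 and 41.9 across mutants 1 to 4. All 3 were highest in control 2 and had control 3 and mutant 3 as the lowest pair, and the groups overlapped for each. The log2 fold changes were -0.57 (SE 0.81, adjusted p 0.756) for *Ddx58*, -0.12 (SE 0.61, adjusted p 0.941) for *Ifih1* and -0.22 (SE 0.995, adjusted p 0.935) for *Dhx58*. Leaving out control 2 turned each of the 3 above 0.

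The antiviral effectors varied most between libraries. *Rsad2*, which encodes viperin, an enzyme that makes a chain-terminating nucleotide, read 41.6, 1245, 33.4 and 98.9 CPM across controls 1 to 4 and 135, 50.3, 6.56 and 248 across mutants 1 to 4. Control 2 was 37.3 times control 3, and mutant 4 was 37.8 times mutant 3. The group means were 355 ± 594 CPM in the controls and 110.0 ± 106 CPM in the mutants (mean ± SD, n = 4 each), so the control SD exceeded the control mean. The log2 fold change was -1.69 (SE 1.34, adjusted p 0.564), and without control 2 it was 0.92. *Cmpk2*, the neighbouring nucleotide kinase gene that is induced together with *Rsad2*, read 18.7, 274, 27.1 and 35.2 CPM across controls 1 to 4 and 37.8, 23.1, 14.5 and 70.1 across mutants 1 to 4. Control 2 again stood alone among the controls, while control 3 lay above control 1, and the log2 fold change was -1.29 (SE 0.90, adjusted p 0.514).

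*Xaf1*, a gene linked to interferon-induced cell death, read 44.3, 218, 3.97 and 63.3 CPM across controls 1 to 4 and 35.9, 21.5, 4.51 and 50.8 across mutants 1 to 4. It was the one member with a log2 fold change below 0 in the 5 smaller libraries, at -0.58 (SE 0.36, adjusted p 0.373). There controls 1 and 4 lay above mutants 1 and 2, and control 4 above mutant 4. Over all 8 libraries the log2 fold change came to -1.55 (SE 1.03, adjusted p 0.498), and without control 3 its unadjusted p was 0.0419. *Parp14*, an ADP-ribosyltransferase, read 108, 772, 36.0 and 176 CPM across controls 1 to 4 and 239, 154, 39.7 and 369 across mutants 1 to 4. Its order of libraries was that of most members, and the log2 fold change came to -0.45 (SE 0.92, adjusted p 0.838).

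**Figure D2:**
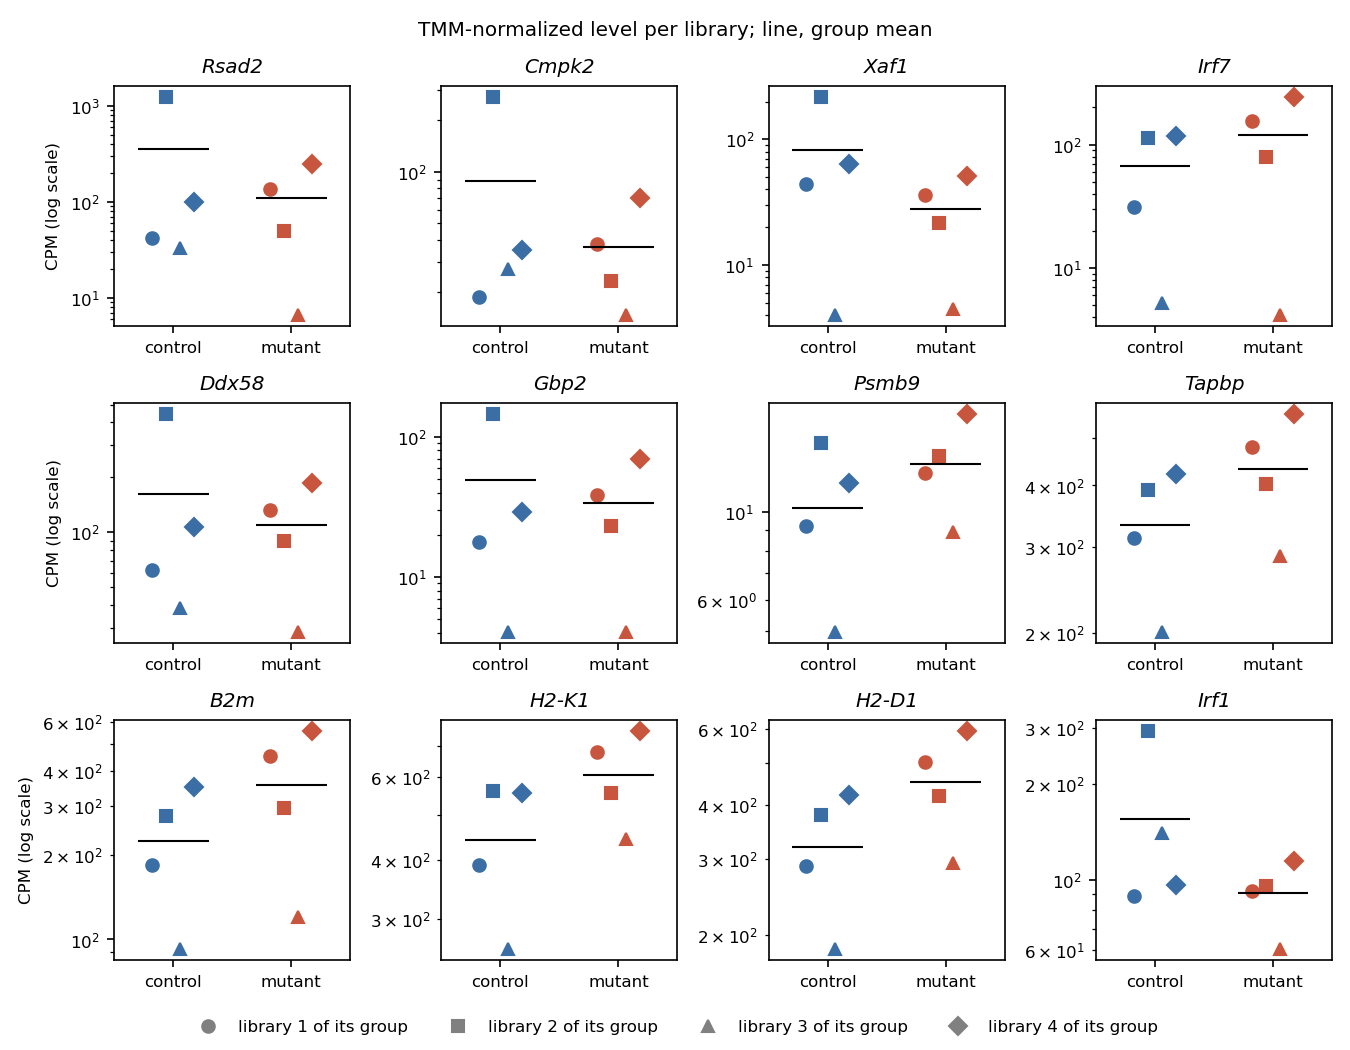
CPM after TMM normalization (y axis, log scale, a range of its own in each panel) of 12 members in the 4 control (blue) and 4 mutant (red) libraries, with the marker shape giving the library number and the line the group mean. Control 2 (blue square) is the highest control for *Rsad2*, *Cmpk2*, *Xaf1*, *Ddx58*, *Gbp2*, *Psmb9*, *H2-K1* and *Irf1*. Mutant 4 (red diamond) is the highest mutant in all 12 panels, and the groups overlap in each panel.

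The other 14 effectors had mean levels of 3.28 to 129.5 CPM in the controls and 5.8 to 107 CPM in the mutants. *Ifit1*, *Ifit2* and *Ifit3*, whose proteins bind foreign RNA, had control 2 at 44.5, 92.7 and 133 times control 3. Their log2 fold changes between genotypes were -0.66, -1.38 and 0.03. *Mx1* and *Mx2*, genes of the dynamin-like GTPase family, had log2 fold changes of -0.78 and -0.29. These 5 genes were all highest in control 2.

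Members of the 2′-5′-oligoadenylate synthetase family differed in their highest library. *Oas1a*, *Oas2* and *Oas3*, whose enzymes make the signal that activates RNase L, were highest in mutant 4, and *Oasl1* and *Oasl2* in control 2, the latter narrowly, at 223 CPM against 216 CPM in mutant 4. Other synthetase genes that are no members, *Oas1b* and *Oas1g*, were highest in control 2. *Oas3* read 1.12, 7.48, 0.038 and 4.48 CPM across controls 1 to 4 and 12.3, 3.51, 0.31 and 21.2 across mutants 1 to 4 and had the highest log2 fold change of the 39, 1.504 (SE 1.32, adjusted p 0.598). Its level in control 3 rested on 2 counts. Among members with more than 3 counts, *Oas2* had the widest gap between controls, with control 2 at 206 times control 3, a level that rested on 6 counts in control 3.

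*Isg15*, a ubiquitin-like protein that is attached to other proteins, read 5.14, 39.3, 1.22 and 11.2 CPM across controls 1 to 4 and 23.8, 11.8, 0.901 and 42.2 across mutants 1 to 4. *Bst2*, which encodes tetherin, a membrane protein that holds budding virus at the cell surface, read 18.2, 23.2, 3.02 and 48.7 CPM across controls 1 to 4 and 53.7, 38.0, 9.16 and 81.1 across mutants 1 to 4. *Bst2* was the effector with the lowest level in control 2 relative to mutant 4, at 0.287 times. *Ifi44* was highest in mutant 4 as well, and *Rtp4*, a receptor-transporter family gene, in control 2. Of the 18 effectors 12 were highest in control 2 and 6 in mutant 4, 17 had control 3 and mutant 3 as the lowest pair, and 9 log2 fold changes lay above and 9 below 0.

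The guanylate-binding proteins are large GTPases that attack the membranes around intracellular microbes. *Gbp2* read 17.7, 146, 4.07 and 29.1 CPM across controls 1 to 4 and 38.5, 23.2, 4.02 and 69.2 across mutants 1 to 4. *Gbp3* read 15.9, 119, 2.11 and 37.6 CPM across controls 1 to 4 and 55.8, 30.7, 1.92 and 88.1 across mutants 1 to 4. Levels of *Gbp7* were 22.1, 101, 15.1 and 35.3 CPM across controls 1 to 4 and 42.3, 30.8, 10.3 and 76.1 across mutants 1 to 4. All 3 were highest in control 2, lowest in mutant 3 and had the groups overlapping. Control 2 was 35.8, 56.4 and 6.71 times control 3 for *Gbp2*, *Gbp3* and *Gbp7*. The log2 fold changes between genotypes were -0.54 (SE 1.05, adjusted p 0.83), 0.01 (SE 1.17, adjusted p 0.997) and -0.13 (SE 0.70, adjusted p 0.948).

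The immunoproteasome subunits replace the catalytic subunits of the standard proteasome and change the peptides it produces. *Psmb8* read 29.6, 60.3, 14.7 and 45.1 CPM across controls 1 to 4 and 47.6, 44.1, 17.1 and 72.7 across mutants 1 to 4. *Psmb9* read 9.24, 15.0, 4.96 and 11.8 CPM across controls 1 to 4 and 12.6, 13.9, 8.92 and 17.8 across mutants 1 to 4, and *Psmb10* levels were 24.9, 46.3, 10.4 and 36.0 CPM across controls 1 to 4 and 34.4, 35.7, 22.1 and 47.3 across mutants 1 to 4. Unlike most effectors, all 3 were highest in mutant 4, though control 2 stood close to it for *Psmb10*, and all were lowest in control 3. Their log2 fold changes were 0.28 (SE 0.49, adjusted p 0.815), 0.37 (SE 0.34, adjusted p 0.616) and 0.25 (SE 0.42, adjusted p 0.8), all above 0.

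Peptides cross into the endoplasmic reticulum through a transporter made of Tap1 and Tap2, and tapasin, the product of *Tapbp*, holds class I molecules beside it. *Tap1* read 27.5, 120.0, 11.8 and 41.7 CPM across controls 1 to 4 and 51.9, 43.2, 15.8 and 82.7 across mutants 1 to 4. *Tap2* read 52.8, 104, 37.8 and 62.4 CPM across controls 1 to 4 and 59.6, 60.0, 40.3 and 85.1 across mutants 1 to 4. Both were highest in control 2 and lowest in control 3. *Tapbp* read 312, 391, 201 and 423 CPM across controls 1 to 4 and 479, 404, 287 and 559.7 across mutants 1 to 4, highest in mutant 4. The log2 fold changes were -0.05 (SE 0.70, adjusted p 0.977), -0.07 (SE 0.32, adjusted p 0.938) and 0.38 (SE 0.27, adjusted p 0.522) for *Tap1*, *Tap2* and *Tapbp*.

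*Psmb9* and *Tap1* lie head to head on chromosome 17, and the 225 bases between their starts (chr17:34187331-34187555, GRCm38, written on the plus strand, on which *Tap1* lies) are shown because 1 stretch serves both genes. They hold no match to the paired GAAA motif, so no base is in capitals.
Psmb9-Tap1: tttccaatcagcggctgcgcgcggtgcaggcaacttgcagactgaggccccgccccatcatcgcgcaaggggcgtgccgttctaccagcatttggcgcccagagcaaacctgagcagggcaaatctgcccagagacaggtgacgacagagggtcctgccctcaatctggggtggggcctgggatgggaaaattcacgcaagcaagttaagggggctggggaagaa
Although they share this stretch, the 2 genes differed in their spread between libraries. Control 2 was 3.03 times control 3 for *Psmb9* and 10.2 times for *Tap1*. Between the 5 smaller libraries both had all 3 mutants above both controls, where 21.7% of all genes did.

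The genes of the class I molecule had the highest levels per length of the 39 and, as a role, the smallest median spread. Per kilobase of gene length their mean levels over the 8 libraries were 342 CPM for *B2m*, 228 for *H2-K1* and 206 for *H2-D1*, followed by *Tapbp* at 139. *B2m*, the invariant light chain, read 184, 278, 92.1 and 351 CPM across controls 1 to 4 and 453, 297, 120.1 and 559 across mutants 1 to 4. *H2-K1*, a classical heavy chain, read 392, 561, 259 and 555 CPM across controls 1 to 4 and 679, 555, 444 and 752 across mutants 1 to 4. The other classical heavy chain, *H2-D1*, read 288, 379, 185 and 423 CPM across controls 1 to 4 and 502, 419, 293 and 593 across mutants 1 to 4. For each gene mutant 4 was highest and control 3 lowest, control 4 lay above mutant 3, and the groups overlapped.

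Group means were 442 ± 145 CPM in the controls and 608 ± 136 CPM in the mutants (mean ± SD, n = 4 each) for *H2-K1*. The log2 fold changes were 0.66 (SE 0.51, adjusted p 0.557) for *B2m*, 0.46 (SE 0.27, adjusted p 0.455) for *H2-K1* and 0.50 (SE 0.29, adjusted p 0.452) for *H2-D1*. These 3 stayed above 0 in each alternative fit and whichever single library was left out, without passing the adjusted threshold in any. The same held for *Psmb9* and *Tapbp*. Mutant 3 had *H2-K1*, *H2-D1* and *B2m* at 1.72, 1.58 and 1.30 times control 3. The median of that ratio was 1.80 for the immunoproteasome and 1.34 for peptide loading. For 17 effectors with more than 3 counts in both libraries that ratio had a median of 1.10, from 0.196 for *Rsad2* to 5.96 for *Oas2*.

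The roles differed in how far they followed the shared order and in the size of the differences. Both orders held for 4 of 6 regulators, 3 of 3 RNA sensors, 15 of 18 effectors and 3 of 3 guanylate-binding proteins, and for 1 of 3 genes each of the immunoproteasome, peptide loading and class I. Control 2 was a median of 41.0 times control 3 for the effectors, 35.8 times for the guanylate-binding proteins, 11.6 times for the RNA sensors, 9.90 times for the regulators, 4.09 times for the immunoproteasome, 2.74 times for peptide loading and 2.17 times for class I. Over 38 members with more than 3 counts in both libraries the median was 18.9, from 1.95 for *Tapbp* to 206 for *Oas2*, and over all genes it was 0.976. Mutant 4 was a median of 31.8 times mutant 3 for the effectors and 2.02 times for class I. Between the highest libraries the roles differed in direction: control 2 was above mutant 4 for 25 members and below it for 14, among them all 6 immunoproteasome and class I genes. The ratio of control 2 to mutant 4 ran from 0.287 for *Bst2* to 5.02 for *Rsad2*. The lowest libraries were close, with mutant 3 a median of 1.14 times control 3. The within-group SD on the log2 scale had a median of 2.04 for the effectors, 1.89 for the guanylate-binding proteins, 1.36 for the sensors, 1.25 for the regulators, 0.72 for the immunoproteasome, 0.53 for peptide loading and 0.48 for class I. Differences between roles were not tested.

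**Figure D3:**
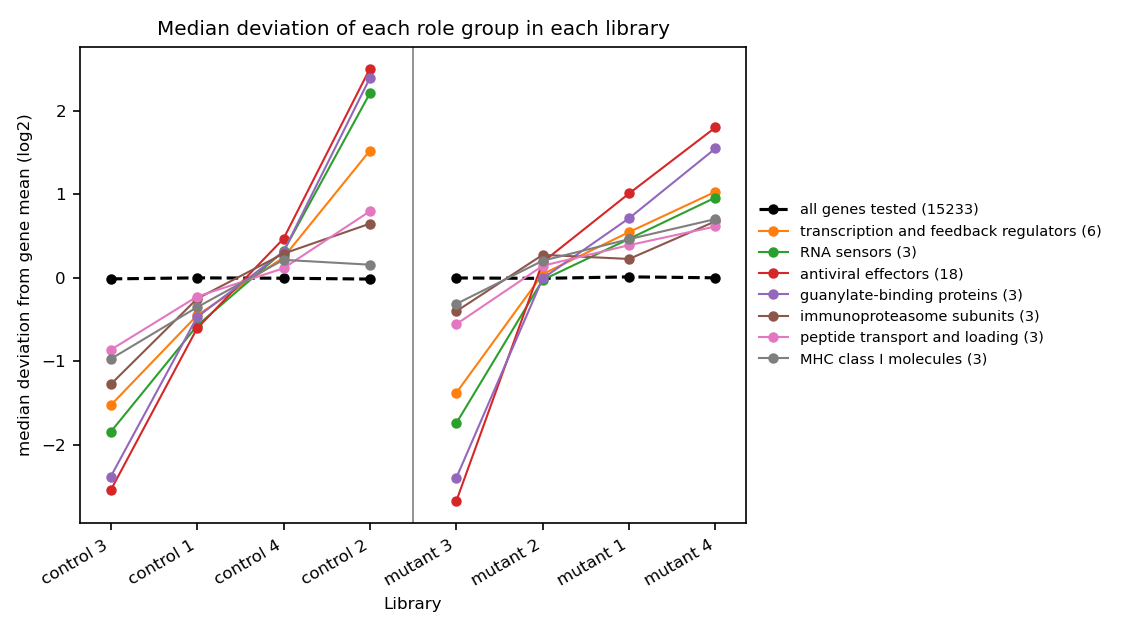
Median deviation from the gene mean in log2(CPM + 0.5) (y axis) for each role group in each library (x axis, ordered within each genotype by the members' level, points joined only to guide the eye), with all 15233 genes as a dashed line at 0. Effectors run from -2.55 in control 3 to 2.502 in control 2 and from -2.68 in mutant 3 to 1.80 in mutant 4, and class I genes from -0.98 to 0.21 and from -0.32 to 0.70.

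Because the libraries fell into sets by depth, genotypes were also compared within each set. Among the 5 smaller libraries, controls 1 and 4 against mutants 1, 2 and 4, 38 members had a log2 fold change above 0 and 1, *Xaf1*, below, with a median of 0.79, where the median of all genes was 0.00. At an unadjusted p below 0.05 were 3 of the 39, all higher in the mutant, where 12.7% of all genes were higher and 10.6% lower. They were *Isg15* with a log2 fold change of 1.66 (SE 0.60, unadjusted p 0.0346), *Psmb9* with 0.48 (SE 0.19, unadjusted p 0.04998) and *H2-K1* with 0.48 (SE 0.19, unadjusted p 0.0474). None of the 39 was called in this set, where 0.0641% of all genes were, the smallest adjusted p being 0.183 for *Isg15*. All 3 mutants lay above both controls for 5 members, *Isg15*, *Rtp4*, *Psmb9*, *Tap1* and *H2-K1*, where 21.7% of all genes did, and below both for none, where 21.5% did. For the members each of these shares is below that of all genes. The members vary together between libraries, so 38 above 0 is not a count of independent genes.

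The direction was the opposite among the 3 larger libraries. Mutant 3 lay below the mean of controls 2 and 3 for 37 members, with a median log2 ratio of -3.07 and an extreme of -6.50 for *Rsad2*, and above it only for *H2-K1* (0.12) and *H2-D1* (0.05). With 1 mutant in this set, no test could be made there. Mutant 3 and control 3 were close for most members, and control 2 stood far above both. With library set as a term over all 8 libraries the median was -0.12, 12 members lay above 0 and 27 below, and none had an unadjusted p below 0.05, where 8.3% of all genes were higher and 6.21% lower.

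**Figure D4:**
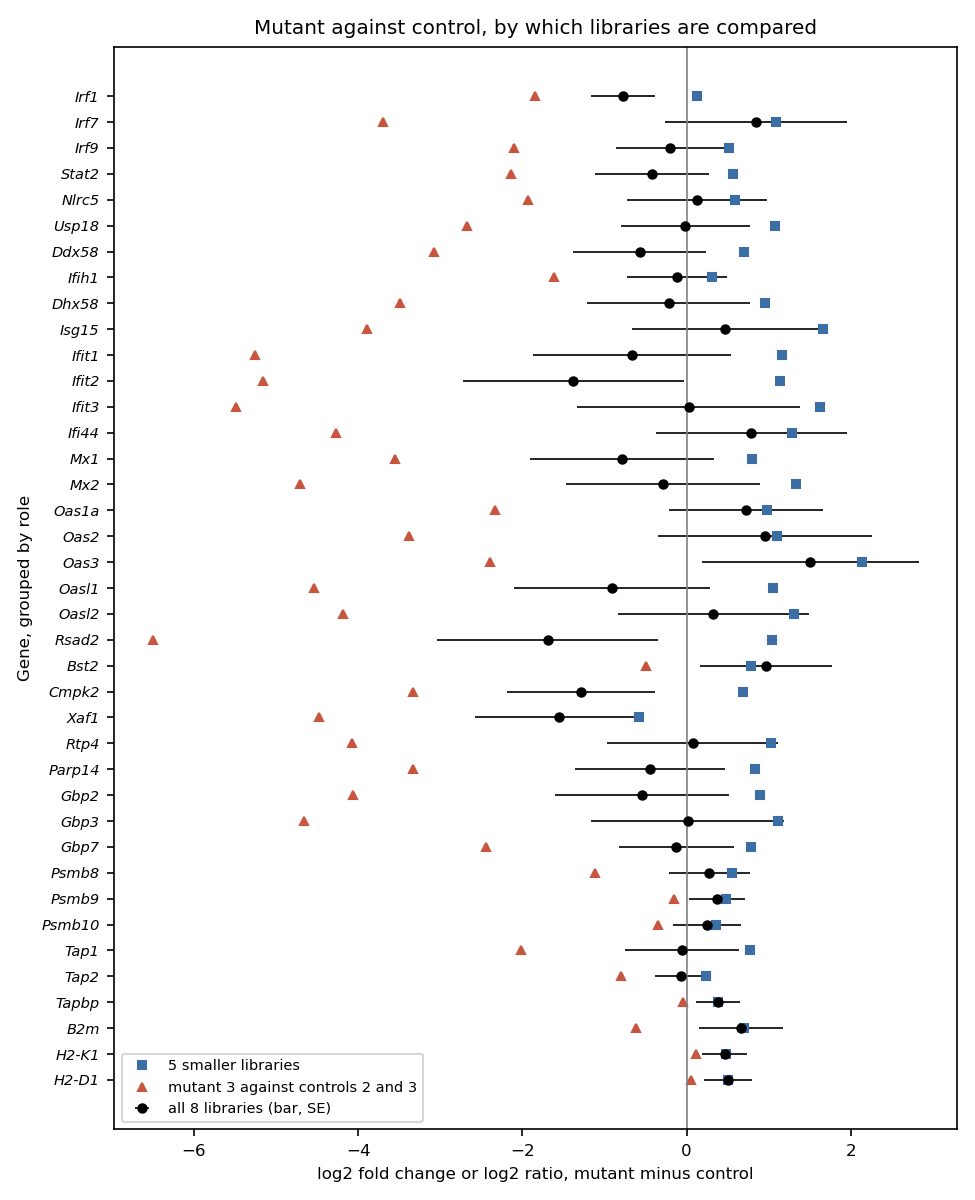
Mutant against control for the 39 members (y axis, grouped by role), as the log2 fold change over all 8 libraries with its SE (black), the log2 fold change among the 5 smaller libraries (blue squares) and the log2 ratio of mutant 3 to the mean of controls 2 and 3 (red triangles). Blue squares lie right of 0 for 38 members and red triangles left of 0 for 37, and the points draw together towards the class I genes.

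The ligands of the pathway were barely detected. None of 7 interferon genes looked at passed the low count filter, and *Ifna1* and *Ifnl2* had no count in any library. *Ifnb1*, the gene of interferon β, had 3, 45, 12 and 8 counts in controls 1 to 4 and 6, 0, 2 and 1 in mutants 1 to 4. Control 2 held most of them, at 0.723 CPM of all assigned counts, without TMM (95% exact Poisson interval 0.528 to 0.968), and control 3 held 0.177 (0.0917 to 0.310). Mutant 4, where the members were high, held 0.0248 (0.000629 to 0.138), and mutant 2 held 0 counts (interval up to 0.0931 CPM, and 0.0757 CPM as the limit from 3 counts). These intervals cover counting error only. *Ifnb1* had 45 counts in control 2, the control with the highest effectors, and 12 in control 3, the lowest library for 25 members. Mutant 4, the mutant with the highest effectors, had 1, at or near the counting limit. The part of interferon β in the members' levels was not tested.

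Of 100 other genes of the pathway, in 8 lists that share no gene with the members, 90 were tested. None was called by edgeR's quasi-likelihood test, 4 had an unadjusted p under 0.05 and were higher and 3 were lower, where 6.4% and 6.89% of all genes were, and the median log2 fold change was -0.07. The shared order of both genotypes held for 34 of the 90, among them 18 of 29 other interferon-stimulated genes and 10 of 12 interferon-inducible GTPases, and for 2 of 14 receptor and signalling genes, 3 of 12 other regulatory factors and upstream genes, 1 of 14 other class I genes, 0 of 6 class II genes and 0 of 3 standard proteasome subunits. Among the 5 smaller libraries 85 of 91 genes tested there lay above 0 with a median of 0.52, and 20 were higher and 0 lower at an unadjusted p under 0.05, where 12.7% and 10.6% of all genes were, with none past the adjusted threshold. Many of these genes vary together between libraries, so the counts are not those of independent genes.

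Of the 14 receptor and signalling genes, 2 were at an unadjusted p below 0.05, both higher in the mutant. *Ifnar2*, a chain of the type I receptor, read 43.4, 39.2, 37.9 and 43.9 CPM across controls 1 to 4 and 50.7, 46.4, 48.0 and 59.0 across mutants 1 to 4, with a log2 fold change of 0.31 (SE 0.11, adjusted p 0.353) and an unadjusted p of 0.0227. *Il10rb*, a chain shared by the receptors of interferon λ and interleukin 10, had a log2 fold change of 0.48 (SE 0.17, adjusted p 0.353) and an unadjusted p of 0.0216. *Ifngr1*, the ligand-binding chain of the interferon γ receptor, had 0.47 (SE 0.23, adjusted p 0.398). None of 12 other interferon regulatory factors and upstream signalling genes was at an unadjusted p below 0.05, and *Tmem173*, which encodes the DNA-sensing adaptor STING, came nearest with 1.40 (SE 0.66, adjusted p 0.389).

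Of 29 other interferon-stimulated genes tested, 13 log2 fold changes lay above and 16 below 0. *Ifitm2*, which encodes an antiviral membrane protein, read 25.2, 19.0, 27.5 and 26.3 CPM across controls 1 to 4 and 46.8, 35.0, 34.3 and 53.3 across mutants 1 to 4, with a log2 fold change of 0.79 (SE 0.19, adjusted p 0.325) and an unadjusted p of 0.00239. DESeq2 gave it an adjusted p of 0.0184, with a fold change under 2. All 4 mutants lay above all 4 controls, as they did for 4 of the 90 pathway genes tested, *Ifnar2* and *Il10rb* among them. The share of all genes was 4.4%, and no member had this. *Lgals3bp* and *Ifitm3* followed by p, with log2 fold changes of 0.32 (SE 0.16, adjusted p 0.413) and 1.24 (SE 0.73, adjusted p 0.455). The 12 interferon-inducible GTPases had 11 log2 fold changes below 0, with a median of -0.55 and none at an unadjusted p below 0.05, and 10 of 12 were highest in control 2. Among the 5 smaller libraries 11 of the 12 lay above 0, with a median of 0.95. *Gbp4*, with -1.86 (SE 1.25, adjusted p 0.501), was 110.2 CPM in control 2 and 19.7 CPM in mutant 4.

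MHC class II genes, which present peptides taken up from outside the cell and mark B cells, dendritic cells and macrophages, did not follow the class I genes. All 6 tested had log2 fold changes below 0, and 3 were lower at an unadjusted p below 0.05, where 6.89% of all genes were. *H2-Eb1* read 5.09, 41.2, 45.5 and 8.01 CPM across controls 1 to 4 and 5.38, 4.55, 2.57 and 8.28 across mutants 1 to 4, with a log2 fold change of -2.27 (SE 0.73, adjusted p 0.353) and an unadjusted p of 0.0129. *H2-Aa* read 7.84, 52.1, 56.7 and 11.6 CPM across controls 1 to 4 and 7.8, 6.69, 3.52 and 12.1 across mutants 1 to 4 and had -2.10 (SE 0.68, adjusted p 0.353). Both were high in control 2 and control 3, and among the 5 smaller libraries the 7 class II genes tested there had a median log2 fold change of 0.16. *Cd74*, the invariant chain, had -1.57 (SE 0.59, adjusted p 0.353). DESeq2 called 2 of the class II genes lower, where it called 1.25% of all genes with an adjusted p in either direction. Among other class I genes none of 14 was past an unadjusted p of 0.05, and among the 3 standard proteasome subunits *Psmb5* had 0.44 (SE 0.17, adjusted p 0.357) with an unadjusted p of 0.0346.

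Markers of cells other than endocrine cells were read beside these results. For 10 tested of 12 macrophage and leukocyte markers the summed level was 38.8 to 89.9 CPM in the controls and 48.7 to 93.6 CPM in the mutants, and *Cd3e* and *Nkg7* did not pass the filter. The highest sums were in mutant 3 and control 3, the libraries with the lowest levels of most members, but single markers differed. *Lyz2* was highest in mutant 3 (29.2 CPM) and *C1qa* in control 3 (45.9 CPM). *Ptprc* was lowest in mutant 3 (1.67 CPM) and *Cd68* in control 3 (5.99 CPM). For 8 endothelial markers the sum was 716 to 781 CPM in the controls and 648 to 815 CPM in the mutants. For 8 fibroblast and pericyte markers it was 323 to 478 CPM in the controls and 657 to 880.3 CPM in the mutants, so these groups did not overlap, although the members' groups did. For 6 ductal markers it was 707 to 1676 CPM in the controls and 1138 to 3043 CPM in the mutants, and for 5 Schwann cell markers 26.5 to 43.7 and 39.4 to 65.9 CPM. The part of these cells in the members' levels was not tested.

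Several members share sequence or position with other genes. The spans of 15 members overlap another gene of the count table, among them *Ifit1*, *Ifit2* and *Ifit3* with *Gm38437*, *Gbp3* and *Gbp7* with *Gbp2b*, *H2-D1* with *H2-L* and *Ddx39b*, and *B2m* with *Patl2*. The H2, Ifit, Oas and Gbp families hold closely similar copies, so how many short reads were counted for each is uncertain. Counting at default settings does not use strand.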

How the data were processed

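Adapters and poly(A) tails had been trimmed with Trimmomatic and FASTP, reads aligned to mm10 (GRCm38) with STAR, and a raw count per gene made with featureCounts at default parameters by the authors, who deposited the counts of 8 islet libraries (35110802 to 67614688 per library). Deeper libraries give low counts more precisely. The authors' own comparison (CPM, log2 fold changes, p-values and FDR) was not used. Of the 24091 genes listed, 26 symbols had been turned into dates and 4 lines shared a symbol.

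The members and all lists were chosen with earlier results of these data known. Counts were filtered with filterByExpr, scaled by TMM and tested by quasi-likelihood in edgeR 4.0.16 under R 4.3.3, with genotype as the only term, because the batches in the study's model are not named. P-values were adjusted by Benjamini-Hochberg over all 15233 genes tested, and a call needed a fold change above 2 with an adjusted p under 0.05. The SE is the size of the log2 fold change divided by the square root of F. Logs of CPM add 0.5. The test was checked on simulated counts with 200 changed genes.

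Values in every library are given for the 3 members of each role with the smallest p, the member of each role with the highest mean CPM, and any member whose groups do not overlap. Up to 3 genes with the smallest p are named from a pathway list. Values of *Oas3*, *Isg15*, *Bst2*, *Ifnb1*, *Oas1b* and *Oas1g* and the single folds and log2 fold changes of other members were added after they had been seen. Libraries were split by total count into 3 larger and 5 smaller ones. Alternatives were RLE factors, edgeR's likelihood ratio test, DESeq2 1.42.0, scaling by total counts, no filter, a stricter filter, the replicate number as a block, a term for library set, the 5 smaller libraries, leaving out each library and, chosen after seeing the data, the 6 libraries with *Ddx3y*. Promoter windows came from RefSeq (GRCm38.p6). Bases just after the start were found in an annotated transcript of the same gene for 31 of 35 windows of members. Figures were drawn with matplotlib 3.10.9.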

Additional observations from a re-analysis of the deposited data

Results flagged for a closer look

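For the 22 members with values chosen by rule, 44 groups of 4 libraries were examined for a library standing apart, with a gap to its nearest neighbour that, as a share of the range of the group, was above Dixon's 95% critical value for 4 values. In 3 groups a library did. Chance alone gives this in about 1 in 20 groups only if the values are normally distributed and the groups independent. Here the gaps were taken on CPM and not on the log2 scale, so a high value stands apart more easily. The groups are not independent either, because the genes vary together. All 3 were control 2. It held *Rsad2* at 1245 CPM, with a gap of 0.946 of the range, *Cmpk2* at 274 CPM, with 0.935, and *Ddx58* at 445 CPM, with 0.833. Without control 2 the log2 fold changes were 0.92 for *Rsad2*, 0.43 for *Cmpk2* and 0.67 for *Ddx58*, in place of -1.69, -1.29 and -0.57. The cause of these levels was not tested.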

How the results depend on the processing

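No member was called under any alternative run. Of all genes, calls numbered 186 with DESeq2, 91 with the likelihood ratio test and 10 in the 5 smaller libraries. They numbered 4 with a term for library set, 1 in the 6 libraries with *Ddx3y* and 0 in every other run. Where no gene was called, the lack of called members says nothing particular about them. *Itgb1* itself was not called by the quasi-likelihood test over all 8 libraries, with -0.75 (adjusted p 0.256). The median log2 fold change of the members ran from -0.44 to 0.92 when single libraries were left out. It was 0.79 in the 5 smaller libraries, and the median log2 ratio in the 3 larger libraries was -3.07. The library medians of the members had a within-group SD of 1.51, which is a spread of single libraries and not the error of a fold change. The count at an unadjusted p below 0.05 moved from 0. It was 3 higher in the 5 smaller libraries, where 12.7% of all genes were. In the 6 libraries with *Ddx3y* it was 1 higher and 1 lower, where 8.13% and 5.98% of all genes were. With DESeq2 it was 1 lower, where 8.72% of all genes were. When single libraries were left out it was 0 to 1 in each direction. *H2-D1* was higher without mutant 3, where 8.46% of all genes were. *Irf1* was lower without control 1 or 4, where 9.80% or 9.94% were, and *Xaf1* was lower without control 3, where 4.23% were. Members with all mutants above all controls numbered 5 in the 5 smaller libraries, where 21.7% of all genes had this, a larger share than among the members. The cause of these changes in count was not tested.

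The replicate numbers were not taken as pairs, since no label ties them to shared mice or days and deviations from the group means correlated at 0.432, -0.0301, 0.433 and 0.231 for numbers 1 to 4. Libraries numbered 1, 3 and 4 each correlated best with their own number, while control 2 did so with mutant 4 (0.202) and mutant 2 with control 4 (0.218). With the replicate block 6 members were higher at an unadjusted p below 0.05 (*Oas2*, *Bst2*, *Tapbp*, *B2m*, *H2-K1* and *H2-D1*), where 10.2% of all genes were, 31 of 39 lay above 0, none was called, the smallest adjusted p was 0.126 and the median was 0.22. Of the 22 members with values chosen by rule, those that turned above 0 were *Dhx58* (0.22), *Gbp2* (0.037), *Ifih1* (0.12), *Parp14* (0.094), *Stat2* (0.047) and *Tap1* (0.25).

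Reversals are likewise listed for these 22 members only. The members above 0, 19 of 39 with all libraries, numbered 38 in the 5 smaller libraries, 12 with a term for library set and 24 with total counts only. In the 5 smaller libraries the direction reversed for *Cmpk2* (0.69), *Ddx58* (0.69), *Dhx58* (0.96), *Gbp2* (0.89), *Gbp7* (0.79), *Ifih1* (0.30), *Irf1* (0.12), *Parp14* (0.83), *Rsad2* (1.03), *Stat2* (0.56), *Tap1* (0.77) and *Tap2* (0.24). With a term for library set it did for *Gbp3* (-0.20), *Irf7* (-0.12) and *Psmb8* (-0.0070). Total counts only shifted the median of all genes to 0.15 and reversed *Gbp7* (0.058), *Ifih1* (0.0199), *Tap1* (0.12) and *Tap2* (0.085). Leaving out single libraries reversed some members, with ranges of -1.82 to 0.43 for *Cmpk2*, -0.96 to 0.67 for *Ddx58*, -0.75 to 1.06 for *Dhx58*, -1.17 to 0.99 for *Gbp2*, -0.57 to 1.25 for *Gbp3*, -0.65 to 0.72 for *Gbp7*, -0.46 to 0.46 for *Ifih1*, -0.92 to 0.90 for *Parp14*, -0.038 to 0.55 for *Psmb10*, -0.047 to 0.60 for *Psmb8*, -2.47 to 0.92 for *Rsad2*, -0.75 to 0.63 for *Stat2*, -0.44 to 0.84 for *Tap1* and -0.27 to 0.26 for *Tap2*. Over all genes tested the calls numbered 0 with the quasi-likelihood test, 186 with DESeq2 and 91 with the likelihood ratio test. Depth limits the levels of *Oas2* and *Oas3* in control 3, which rest on 6 and 2 counts.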
